A study of Mus musculus with 16 samples.

Results

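The question addressed here was whether training for conditioned taste aversion (CTA) changed gene expression by a different amount in neurons of the basolateral amygdala (BLA) than in neurons of the gustatory cortex (GC). All 16 libraries of the series were used, and 15191 of the 31469 entries listed in both tables averaged 1 TPM or more over the 16 libraries and formed the genes compared (TPM is a measure of transcript level scaled to gene length and to the sum of the library). A further 9122 entries were at 0 in every library, and 7156 lay above 0 with a mean under 1 TPM. The entries nearest to that limit were Mir128-2 and Vwc2, inside it with region by training terms of -0.47 and 0.38, and Enpp1 and Olfr1344, outside it with terms of 0.58 and -0.03.

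YFP+ neurons were collected from males of the YFP-H line, B6.Cg-Tg(Thy1-YFP)HJrs/J, aged 60 to 80 postnatal days, 4 hr after training. CTA mice drank 0.5% saccharin for 30 min and were then injected i.p. with 0.15 M lithium chloride at 2% of body weight. Taste control mice drank the same saccharin and were injected with saline instead. The 4 groups of 4 libraries were BLA CTA, BLA taste control, GC CTA and GC taste control. All mice carried the transgene, in which the Thy1 promoter drives YFP, so that only neurons in which this promoter is active were sampled. In pooled neurons, a lower value can come from fewer neurons with a transcript or from less of it per neuron, and these cannot be told apart. Whether BLA and GC libraries of the same number came from the same mouse is not given in the labels.

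The BLA and the GC both take part in CTA, a memory in which an animal comes to avoid a taste that was followed by malaise. Neuronal activity switches on immediate early genes such as Fos, which encodes a subunit of the transcription factor AP-1, and these are followed by delayed genes that act at synapses and in secretion. Stk11 encodes LKB1, the kinase that activates AMP-activated protein kinase and its relatives.

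Upstream sequences of Fos and Stk11 are shown because the contrast between the regions is described first for these genes. Each is the 250 bases before the start site used in the RefSeq promoter table (GRCm38.p6, plus strand), at chr12:85473640-85473889 for Fos and chr10:80115545-80115794 for Stk11. The RefSeq gene Stk11 itself begins at position 80115767, so the end of its window lies inside the gene. Capitals mark the core of the cyclic AMP response element, CGTCA on either strand, which reads TGACG on the strand shown.
Fos: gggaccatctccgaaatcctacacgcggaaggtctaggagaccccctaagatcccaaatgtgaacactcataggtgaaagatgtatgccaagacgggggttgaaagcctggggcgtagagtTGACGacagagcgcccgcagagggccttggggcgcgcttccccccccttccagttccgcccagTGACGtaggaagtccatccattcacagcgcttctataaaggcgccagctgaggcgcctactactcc
Stk11: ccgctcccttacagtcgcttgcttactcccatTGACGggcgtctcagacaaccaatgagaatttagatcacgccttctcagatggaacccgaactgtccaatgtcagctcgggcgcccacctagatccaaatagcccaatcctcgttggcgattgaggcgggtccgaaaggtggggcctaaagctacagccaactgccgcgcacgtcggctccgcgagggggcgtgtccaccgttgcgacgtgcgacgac
The Fos window held 2 such cores and the Stk11 window 1, while 17.8% of 32851 RefSeq windows of this length held at least 1. The AP-1 site TGANTCA, with N any base, was in neither window and in 6.75% of all windows. These matches describe letters only.

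The neurons carried the markers of projection neurons. Slc17a7, the vesicular glutamate transporter of cortical and BLA projection neurons, averaged 703 ± 69.0 TPM in BLA CTA, 719.9 ± 51.2 TPM in BLA taste control, 905 ± 52.4 TPM in GC CTA and 853 ± 84.2 TPM in GC taste control (SD, n = 4 each). The regions themselves differed in a BLA marker: Rspo2 averaged 67.0 and 92.1 TPM in BLA CTA and taste control against 18.1 and 19.7 TPM in GC CTA and taste control. Among 13 oligodendrocyte markers, the summed level ran over 35.0 to 133 TPM in BLA CTA, 18.5 to 168 TPM in BLA taste control, 125 to 188 TPM in GC CTA and 125 to 439 TPM in GC taste control. The sum over 16 interneuron markers was mostly Cck, which projection neurons also express. In BLA CTA, BLA taste control, GC CTA and GC taste control, Slc32a1, the vesicular GABA transporter, averaged 3.36, 2.93, 1.95 and 0.72 TPM, Gad2, a GABA-synthesizing enzyme, 23.7, 17.1, 10.7 and 4.53 TPM, and the neuropeptide gene Npy 223, 196, 176 and 61.5 TPM. Pvalb was listed at 0 in BLA and averaged 27.4 and 34.8 TPM in GC CTA and taste control. None of the 82 marker genes tested, over 10 lists, had an unadjusted p of the term under 0.05, where 3.96% of all genes did. Crym is in both the projection neuron list and the layer 5 list, and the 82 count it in each. BLA libraries listed 15850 to 17202 entries above 0 and GC libraries 17982 to 18340, and Thy1 made up 6.41% to 8.91% of the TPM of BLA libraries and 2.69% to 5.39% of those of GC libraries. The part of these differences in the results below was not tested.

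For each gene the effect of training was the difference in mean log2(TPM + 1) between CTA and taste control, and the region by training term was the effect in BLA minus the effect in GC, so that a positive term means that CTA was higher relative to taste control in BLA than in GC. A difference on this scale understates the change of a low gene. No gene had an adjusted p under 0.05 (limma, 0 of 15191 genes, 0%), and the smallest adjusted p was 0.999515. At an unadjusted p under 0.05 there were 601 genes (3.96%), 299 with a positive term (1.97%) and 302 with a negative term (1.99%). With array quality weights or with each region fitted on its own, 616 and 681 genes passed that unadjusted limit and 0 the adjusted one.

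The intervals show how large a difference these libraries could have missed. Of the 5495 genes that averaged 30 TPM or more, 178 (3.24%) had an unadjusted p under 0.05, and 2332 (42.4%) had a 95% interval of the term that lay within a 2-fold difference in either direction, that is between -1 and 1. Over the same 5495 genes the interval reached a median of 0.81 to either side of the term. Libraries of one group scattered more in BLA, with a median SD of 0.44 on the log2 scale against 0.28 in GC, and 4494 genes (81.8%) had the larger SD in BLA. At that median width, a term smaller than 0.81 could not be told from 0 even before adjustment.

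The measured effects of training in the 2 regions bore little relation to each other over the 5495 genes. Pearson's r was 0.02 and Spearman's rho 0.05, a description over genes of the same libraries, which are not independent replicates, and 51.0% of the genes had the same sign in both regions. In BLA 139 genes differed by at least 2-fold, 63 higher and 76 lower in CTA, and 69 of the 139 had the same sign in GC. In GC 25 genes differed by as much, of which 10 had the same sign in BLA. The spread of the effects over genes was 0.39 in BLA and 0.23 in GC (SD). The root mean square standard error that the scatter of libraries gives was 0.42 for BLA and 0.27 for GC. The effects thus spread no more than that scatter gives, so the correlation cannot show whether the responses of the regions were shared.

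**Figure D1:**
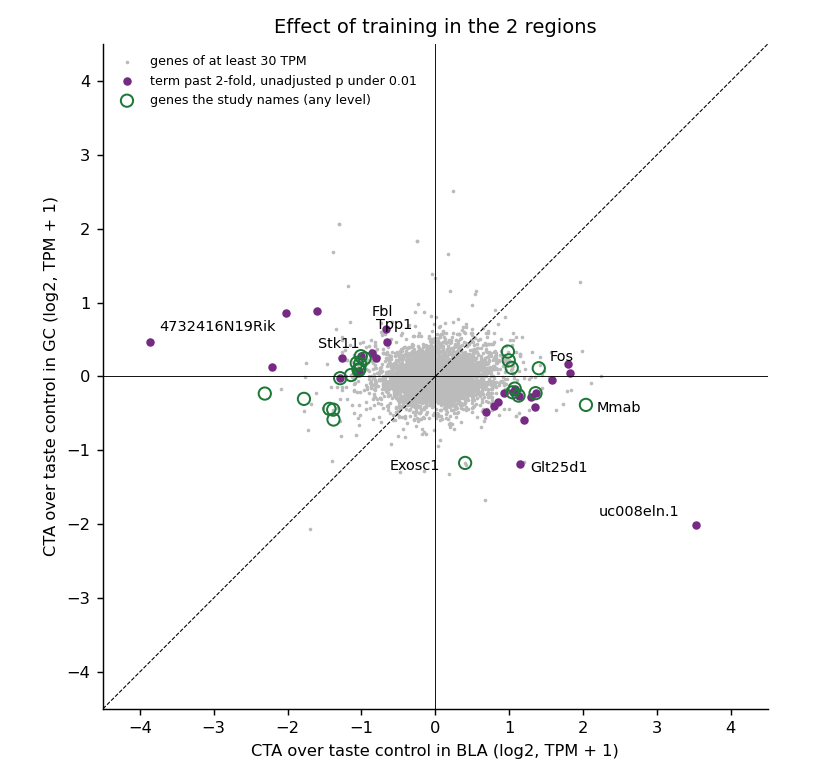
Difference in mean log2(TPM + 1) between CTA and taste control in BLA (x axis) and in GC (y axis) for 5495 genes of at least 30 TPM, grey points, with 28 genes whose term passed 2-fold at an unadjusted p under 0.01 in purple and 23 genes the study names circled; the dashed line marks equal effects. The purple points lie to the left and right, where the BLA effect was the larger in 27 of 28, and most of them near the horizontal zero line.

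Of the genes the study names in these neurons, 23 were taken for description. Of these, 20 were chosen for their difference between CTA and taste control in the same BLA libraries that enter the term, so their terms are no independent evidence of a difference in BLA. Their values in GC did not enter that choice, but whether the GC libraries came from the same mice is not given. Of the 8 genes higher in BLA CTA, 3 were also higher in GC CTA, with GC effects between -0.39 and 0.22 and a median of -0.19. Of the 12 genes lower in BLA CTA, 6 were also lower in GC CTA, with GC effects between -0.58 and 0.27 and a median of 0.03. In GC all 20 had some overlap between CTA and taste control libraries, where 1.8% of the 5495 genes had none. The term had an unadjusted p under 0.05 for 16 of the 20, where 3.96% of all genes had one, and its median size was 1.24. The BLA effect that chose the 20 is part of the term, so this count is only a description. Nptx2 and Mark2, outside the 20, are also named by the study for differences in the same BLA libraries.

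Fos was at 40.9, 31.9, 19.9 and 34.0 TPM in BLA CTA libraries, against 17.3, 5.78, 8.64 and 16.4 TPM in BLA taste control libraries. All 4 BLA CTA libraries were above all 4 taste controls. In GC it was at 16.1, 21.7, 42.7 and 40.4 TPM in CTA libraries, against 30.2, 38.1, 16.9 and 22.7 TPM in taste control libraries. The GC groups overlapped throughout, and the ratio of means, CTA over taste control, was 2.64 in BLA and 1.12 in GC. The term of Fos was 1.29 (SE 0.56, 95% interval 0.11 to 2.47) with an unadjusted limma p of 0.0338, an adjusted p of 0.999515 and a two-sided exact permutation p of 0.0922 over the 4900 arrangements of training labels within regions. Leaving out single libraries took the unadjusted p to between 0.0184 and 0.0826, and it was at or above 0.05 in 8 of 16 cases. Quantile normalization took it to 0.0524.

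Nptx1 and Nptx2 encode neuronal pentraxins, secreted proteins that cluster AMPA receptors. Nptx1 was at 80.5, 95.3, 93.7 and 107 TPM in BLA CTA, against 45.1, 46.5, 51.6 and 43.0 TPM in BLA taste control. In GC its CTA libraries, at 118, 94.6, 121 and 124 TPM, overlapped with its taste controls, at 108, 93.1, 76.6 and 118 TPM. Its term was 0.78 (SE 0.26, unadjusted limma p 0.00726, exact permutation p 0.0604), with an effect of 0.99 in BLA and 0.22 in GC. For Nptx2 the effect was 0.98 in BLA and 0.34 in GC, and the interval of the term, -0.17 to 1.47, included 0.

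Stk11 was at 19.8, 18.3, 14.5 and 15.4 TPM in BLA CTA libraries, against 37.4, 32.7, 38.9 and 27.3 TPM in BLA taste control libraries. In GC it was at 43.5, 28.1, 77.8 and 36.1 TPM in CTA libraries, against 45.1, 24.0, 31.6 and 50.2 TPM in taste control libraries. The BLA groups did not overlap and the GC groups did, with a ratio of 0.50 in BLA and 1.23 in GC. The term of Stk11 was -1.20 (SE 0.44, 95% interval -2.12 to -0.29), with an unadjusted limma p of 0.0129, an adjusted p of 0.999515 and an exact permutation p of 0.0216. Its unadjusted p stayed between 0.00508 and 0.0355 whichever library was left out. In RefSeq Stk11 overlaps Cbarp, and reads of overlapping genes cannot be assigned without strand. Cbarp, listed as Dos, had a term of 0.14 (SE 0.31), and its part in the Stk11 values was not tested.

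Among 23 members of the list of Stk11 and AMP-related kinases, 4 had a term below 0 at an unadjusted p under 0.05, where 1.99% of all genes did, and none had one above, where 1.97% did. They were Stk11 itself, which was chosen for its BLA difference, Mark2, a kinase of microtubule-associated proteins that LKB1 activates, Nuak1, another kinase of this family, and Stk11ip, which encodes a protein that binds LKB1. The study also names Mark2 for its lower level in CTA in the same BLA libraries, so neither Stk11 nor Mark2 is an independent member of this count. The exact permutation p of the term was 0.0563 for Mark2, 0.0237 for Nuak1 and 0.0196 for Stk11ip. Mark2 was at 33.0, 35.8, 41.9 and 28.9 TPM in BLA CTA, against 72.1, 135, 43.8 and 84.1 TPM in BLA taste control, while in GC the 2 groups averaged 90.5 and 88.3 TPM in CTA and taste control. Nuak1 had a term of -1.13 and Stk11ip one of -1.32. The whole list did not share this direction: 13 of the 23 had a term above 0, with a median of 0.13, where 52.6% of all genes had one above 0, with a median of 0.03.

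**Figure D2:**
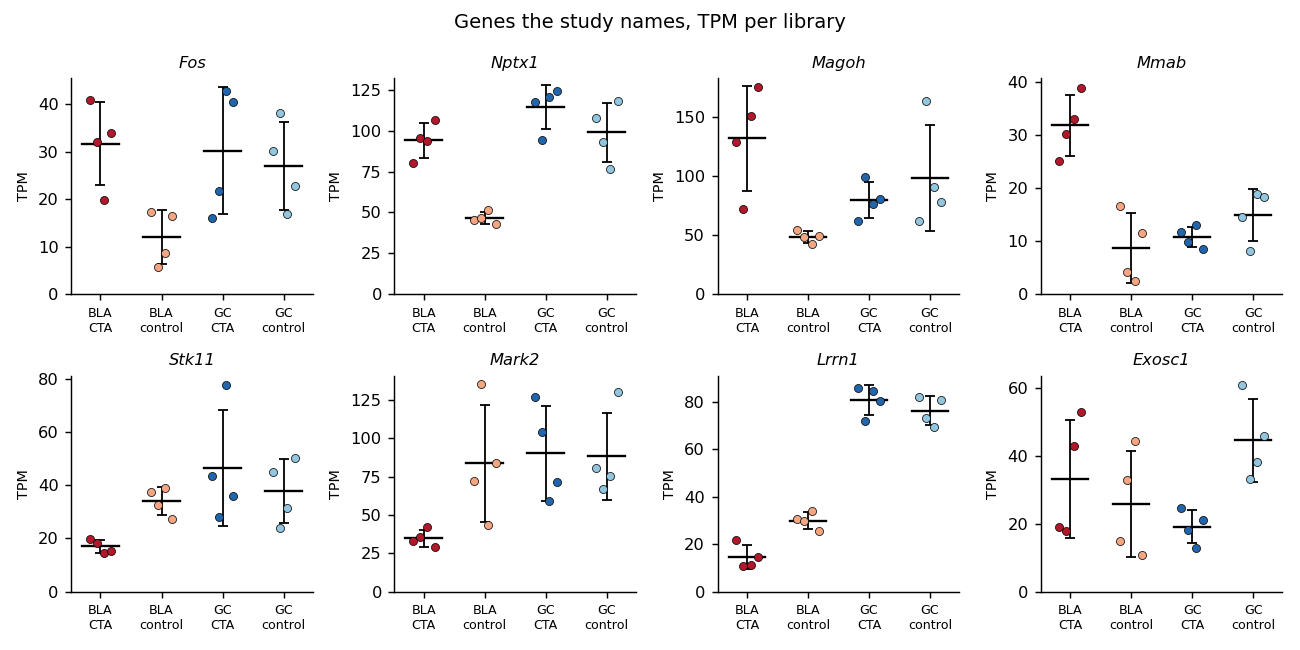
TPM per library (y axis, from 0) of 8 genes the study names in BLA CTA, BLA taste control, GC CTA and GC taste control; points are libraries, lines the means and bars the SD (n = 4). Fos, Nptx1, Magoh and Mmab were higher in BLA CTA, and Stk11, Mark2 and Lrrn1 lower, with overlap of CTA and taste control in GC, while Exosc1 had no overlap in GC.

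Magoh and Nudt21, genes of RNA processing, were among the 8 higher in BLA CTA. Magoh encodes a core subunit of the exon junction complex and was at 129, 72.0, 151 and 175 TPM in BLA CTA, against 54.4, 48.2, 42.5 and 49.2 TPM in BLA taste control. In GC it was at 61.9, 99.3, 76.8 and 80.9 TPM in CTA, against 62.4, 164, 90.9 and 77.8 TPM in taste control. Its term of 1.58 (SE 0.41, unadjusted limma p 0.00111, exact permutation p 0.0135) was the sixth smallest by p of all genes, and reads shared with its close paralog make its level uncertain. Nudt21, the small subunit of a cleavage factor that sets where transcripts are polyadenylated, had a term of 1.39 (SE 0.42), with 62.7, 77.9, 48.2 and 64.4 TPM in BLA CTA against 23.3, 47.6, 21.8 and 25.5 TPM in BLA taste control. Magoh was the 1 of 15 genes of the exon junction complex and nonsense-mediated decay, and Nudt21 the 1 of 17 cleavage and polyadenylation factors, with a positive term at an unadjusted p under 0.05, where 1.97% of all genes had one. Both had been chosen for their BLA difference.

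Exosc1, a component of the RNA exosome, is the study gene whose difference lay in GC. It was chosen for that difference in the same GC libraries, so its term is no independent evidence of it. It was at 24.5, 18.1, 13.01 and 21.1 TPM in GC CTA, against 61.0, 33.2, 38.1 and 45.9 TPM in GC taste control, without overlap. In BLA its CTA libraries, at 18.99, 17.97, 42.9 and 52.8 TPM, overlapped with taste controls at 15.1, 32.9, 44.4 and 10.8 TPM. The term was 1.57 (SE 0.60, 95% interval 0.31 to 2.84, unadjusted limma p 0.0174, exact permutation p 0.0355). The other 15 exosome genes of the list all had an unadjusted p at or above 0.05.

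Mmab, an enzyme of vitamin B12 metabolism in mitochondria, had the largest positive term of the 23, 2.42 (SE 0.63, unadjusted limma p 0.00115, exact permutation p 0.00367). It was at 25.1, 30.2, 32.9 and 38.8 TPM in BLA CTA, against 16.6, 4.15, 2.39 and 11.5 TPM in BLA taste control. Ric8, known as Ric8a, a chaperone of G protein alpha subunits, had a term of 1.24, Kbtbd4, a substrate adaptor of cullin 3 ligases, one of 1.26, and 1110008F13Rik, known as Rab5if, one of 0.92. Ric8 overlaps Sirt3 in RefSeq, whose own term was -0.35 (SE 0.55).

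Of the study genes lower in BLA CTA, Lrrn1, a neuronal membrane protein with leucine-rich repeats, had the smallest unadjusted p, 0.00285. It was at 21.7, 10.7, 11.2 and 14.8 TPM in BLA CTA, against 30.5, 29.6, 34.2 and 25.7 TPM in BLA taste control, while GC libraries carried 71.8 to 86.0 TPM in CTA and 69.3 to 82.1 TPM in taste control. The term of Prpf6, a splicing factor of the tri-snRNP, was -1.19, that of Trpc1, a cation channel subunit, -1.25, and that of D10Wsu102e -1.28. Surf2 had a term of -1.26 and overlaps Surf1 and Surf4, and Tctex1d2, a dynein light chain, had one of -1.13. Tmem107, a protein of the ciliary transition zone, had the largest negative term of the 23, -2.08, with a wide interval of -4.13 to -0.02, and its exact permutation p was 0.128. The intervals of Kank3, Gpr108, Vkorc1 and Tmem136 included 0, and all 4 were lower in CTA in both regions, with GC effects of -0.30, -0.44, -0.45 and -0.58.

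**Figure D3:**
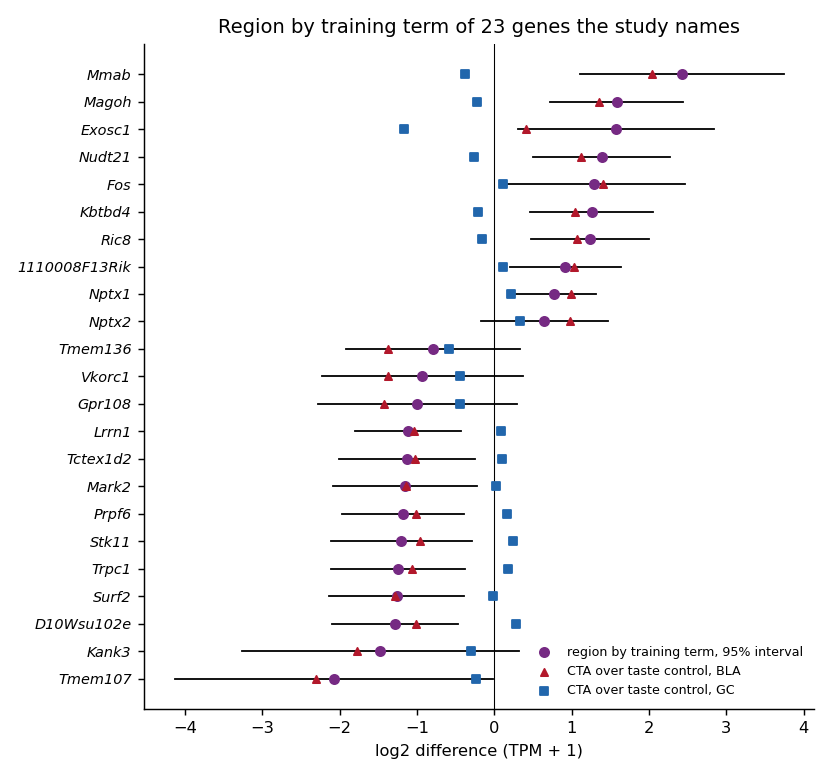
Region by training term (purple, with its 95% interval) and the effects of training in BLA (red triangles) and GC (blue squares) of 23 genes the study names, on the log2(TPM + 1) scale of the x axis, 1 gene a row. The blue squares lie between -0.58 and 0.34 for every gene but Exosc1, at -1.17, and the intervals of 5 genes, Nptx2, Kank3, Gpr108, Vkorc1 and Tmem136, include 0.

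Under the study's form of criteria applied to the term, a 2-fold difference or more at an unadjusted p under 0.01 among genes of 30 TPM or more, 28 of 5495 genes passed (0.51%), 16 with a positive term (0.291%) and 12 with a negative one (0.218%). Of the 28, 7 are study genes. In 25 the effects had opposite signs in BLA and GC and in 27 the BLA effect was the larger, and both are descriptions, since the term chose these genes. CTA and taste control did not overlap in BLA for 16 of the 28 and in GC for 2, against 2.15% and 1.8% of all 5495 genes in BLA and GC. The term that chose the 28 genes rests on the same libraries, so this too is only a description. None of the genes described next passed adjustment: their adjusted p was 0.999515.

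Glt25d1, known as Colgalt1, a galactosyltransferase that modifies collagen, had the smallest unadjusted p of all genes, 0.000137 by limma. It was at 56.4, 28.8, 50.4 and 65.9 TPM in BLA CTA, against 15.2, 46.1, 20.1 and 14.4 TPM in BLA taste control. In GC the order was the other way and without overlap, with 31.4, 30.8, 27.1 and 39.9 TPM in CTA against 57.9, 112, 65.6 and 71.9 TPM in taste control. The term was 2.33 (SE 0.49, 95% interval 1.32 to 3.35, exact permutation p 0.00122). Its neighbour Unc13a, which overlaps it in RefSeq, had a term of -0.17 (SE 0.36).

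Tpp1, a lysosomal peptidase whose loss in humans causes a neuronal ceroid lipofuscinosis of childhood, was the only gene of 30 TPM or more with no overlap of CTA and taste control in BLA and in GC and with opposite directions (1 of 5495, 0.0182%). It was at 36.1, 19.5, 30.1 and 36.1 TPM in BLA CTA, against 43.6, 39.7, 51.5 and 55.8 TPM in BLA taste control. In GC it was at 53.7, 52.5, 54.7 and 49.0 TPM in CTA, against 37.2, 35.7, 37.8 and 40.0 TPM in taste control. BLA CTA was thus lower and GC CTA higher, with a term of -1.12 (SE 0.32, 95% interval -1.79 to -0.46), an unadjusted limma p of 0.00227 and an exact permutation p of 0.000408, the smallest that this design allows. Any gene without overlap in both regions and with opposite directions takes this exact permutation p, so it adds nothing to the lack of overlap. Without regard to direction, 2.15% of the 5495 genes had no overlap in BLA and 1.8% had none in GC. No gene of this level was without overlap in the same direction in both regions (0 of 5495, 0%).

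Ctsd, cathepsin D, another lysosomal protease, also had a negative term, -0.71 (SE 0.20, unadjusted limma p 0.00254, exact permutation p 0.00204). It was at 185, 166, 122 and 140.1 TPM in BLA CTA, against 226, 238, 225 and 224 TPM in BLA taste control, and in GC at 239, 250.2, 272 and 262 TPM in CTA against 216, 258, 235 and 234 TPM in taste control. The 4 BLA taste controls lay within a narrow band above every BLA CTA library. Lysosomal genes were not among the lists, so nothing is said of them as a group.

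Fbl, fibrillarin, the methyltransferase that modifies ribosomal RNA, had effects of similar size in both regions and opposite in sign, -0.67 in BLA and 0.65 in GC. It was at 75.9, 89.8, 50.9 and 64.6 TPM in BLA CTA, against 147, 119, 75.4 and 112 TPM in BLA taste control, and at 81.3, 89.7, 112 and 146 TPM in GC CTA against 60.9, 86.2, 58.5 and 62.7 TPM in GC taste control. In each region 1 taste control library lay inside the range of CTA, and the term was -1.32 (SE 0.35, unadjusted limma p 0.0013, exact permutation p 0.00286).

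Hsf1, the transcription factor of the heat shock response, was at 74.4, 97.9, 30.0 and 80.8 TPM in BLA CTA, against 43.2, 20.4, 30.5 and 14.0 TPM in BLA taste control, with a term of 1.76 (SE 0.50). Mpv17l2, a protein of the inner mitochondrial membrane that acts in assembly of the mitochondrial ribosome, was at 43.6, 41.8, 48.1 and 75.6 TPM in BLA CTA, against 27.5, 14.7, 19.5 and 26.9 TPM in BLA taste control, with a term of 1.79 (SE 0.49). Both were lower on average in GC CTA than in GC taste control, with effects of -0.41 and -0.59.

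Glce, an epimerase of heparan sulfate synthesis, had a term of 1.77 and Fam163b one of 1.62, with GC effects of 0.05 and -0.05. Fam163b averaged 17.7 and 5.12 TPM in BLA CTA and taste control but 113 and 116 TPM in GC CTA and taste control, so its BLA difference lay at a level far under that of GC. Hspb11, a protein of intraflagellar transport, was at 44.1, 44.8, 50.5 and 50.6 TPM in BLA CTA, against 80.3, 91.1, 119 and 56.6 TPM in BLA taste control, with a term of -1.06. Ggt7, of the gamma-glutamyltransferase family, had a term of -0.98 and Urod, an enzyme of heme synthesis, one of -1.52. Among the 28 genes the largest positive and the largest negative term belonged to entries with at least 1 library at 0, uc008eln.1, which has no gene name in the files, with 5.53 (SE 1.52), and 4732416N19Rik with -4.32 (SE 1.17). The term of 2300009A05Rik was -2.34 (SE 0.76).

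**Figure D4:**
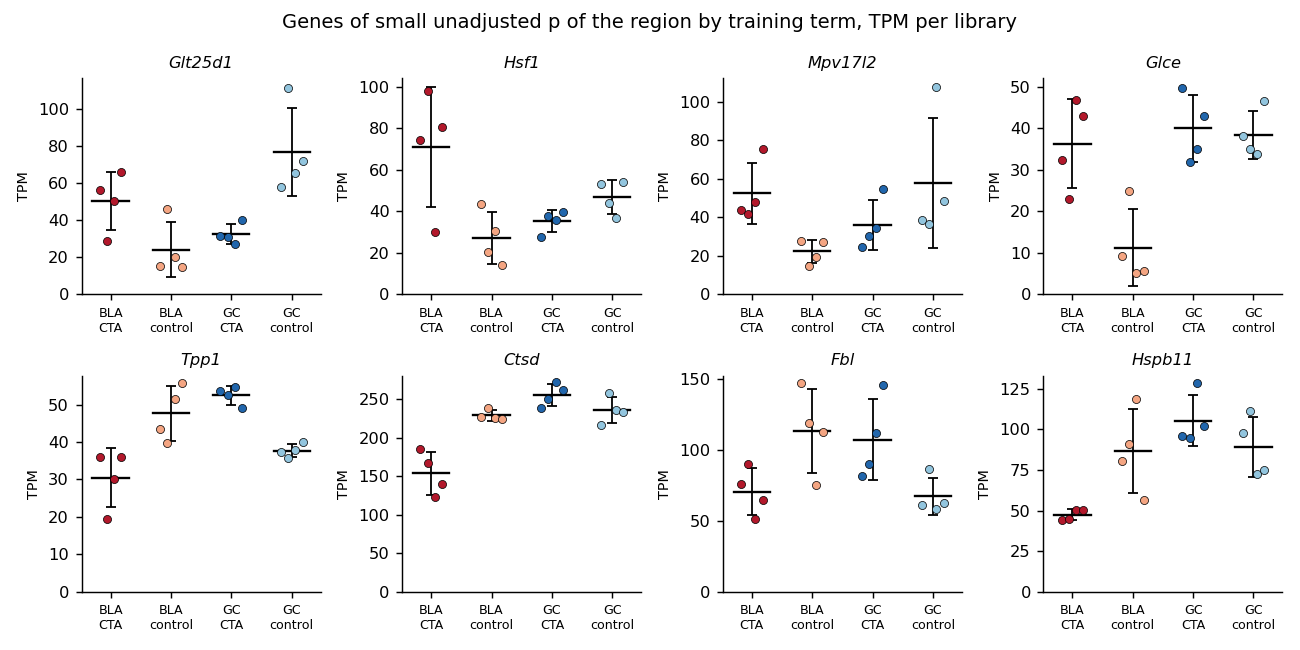
TPM per library (y axis, from 0) of 8 of the genes with the smallest unadjusted p of the term in BLA CTA, BLA taste control, GC CTA and GC taste control; points are libraries, lines the means and bars the SD (n = 4). In Glt25d1, Tpp1 and Fbl the order of CTA and taste control was reversed between BLA and GC, and in Ctsd and Hspb11 most of the difference lay in BLA.

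The lists of activity-regulated genes had more terms above 0 than all genes together. Of 33 immediate early genes, 24 had a term above 0 (median 0.32), where 52.6% of all genes did (median 0.03), but only Fos with a positive term and Klf2, at 2.52 TPM or less in every group mean, with a negative one had an unadjusted p under 0.05, 2 of 33 where 3.96% of all genes did. The median effect over the list was 0.49 in BLA and 0.10 in GC. Fos had been chosen by the study for its difference in the same BLA libraries. Egr3, a zinc finger transcription factor, was at 101, 155, 86.1 and 101 TPM in BLA CTA, against 48.6, 66.5, 56.4 and 91.8 TPM in BLA taste control, and averaged 141 and 136 TPM in GC CTA and taste control, with a term of 0.71 whose interval of -0.02 to 1.44 included 0. Much of the list's level came from 1 library: the median over the list, relative to the taste control mean of the region, was 0.26, 1.04, 0.18 and 0.32 in the BLA CTA libraries and -0.33, 0.09, 0.50 and 0.13 in the GC CTA libraries. Without BLA CTA replicate 2 the median term was 0.11, with 18 of 33 above 0, and without GC CTA replicate 1 it was 0.15, with 21 above 0. The highest median was 0.53, without BLA CTA replicate 3.

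Of 21 delayed activity-regulated genes, 19 had a term above 0, with a median of 0.46, a median effect of 0.40 in BLA and one of -0.05 in GC. Of all genes, 52.6% had a term above 0, with a median of 0.03. Nptx1 and Cdkn1a, the cell cycle inhibitor p21, were the 2 with an unadjusted p under 0.05, where 3.96% of all genes had one. Nptx1 and Nptx2, both with a term above 0, had been named by the study for their difference in the same BLA libraries. Cdkn1a was at 9.84, 69.9, 9.84 and 78.3 TPM in BLA CTA, against 8.03, 4.58, 0.75 and 6.13 TPM in BLA taste control, so 2 libraries carried most of its term of 2.77 (SE 0.87). Rgs2, a regulator of G protein signaling, had a term of 0.61 and Inhba, a subunit of activin, one of 1.82, and both intervals included 0. With single libraries left out, the median term of the list was lowest at 0.33, without BLA CTA replicate 2, when 17 of 21 were above 0, and the number above 0 was lowest at 15, without BLA CTA replicate 4, and at 16 without GC CTA replicate 4.

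Ribosomal protein genes had more terms below 0, but their median level varied between the libraries of a group. Of 78 mitochondrial ribosomal protein genes, 53 had a term below 0 (median -0.24), and of 77 cytosolic ones 56 did (median -0.13). Of all 15191 genes, 7207 had a term below 0, with a median of 0.03. The mitochondrial median was -0.13 among the 66 genes of the list with 30 TPM or more and -0.14 with array quality weights. Mrps18a was at 58.9, 114, 81.9 and 85.1 TPM in BLA CTA, against 154, 165, 125 and 189 TPM in BLA taste control, with a term of -0.995 (unadjusted limma p 0.00944), but Mrpl20 had a term of 0.53, at an unadjusted limma p of 0.0346. No other mitochondrial gene of the list had an unadjusted p under 0.05, where 3.96% of all genes did. Among the cytosolic genes Rpl21 alone had an unadjusted p under 0.05, with a term of -0.54, and reads of its pseudogenes make its level uncertain. Single libraries moved the cytosolic median to between -0.22 and -0.03, the value nearest to 0 being that without BLA CTA replicate 1. Relative to the taste control mean of the region, the cytosolic median was -0.31, 0.18, 0.04 and -0.24 in the BLA CTA libraries. In the GC CTA libraries it was -0.12, -0.09, 0.17 and 0.18. The mitochondrial median was -0.13, -0.03, -0.03 and -0.39 in BLA CTA, against 0.12, 0.07, -0.11 and -0.06 in BLA taste control. In GC CTA it was -0.09, -0.09, 0.13 and 0.15. Genes of a list share the same libraries, so the counts are only descriptions.

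In each of the ion channel and receptor lists 0 to 3 genes passed the unadjusted limit, which 3.96% of all genes passed. Of 56 potassium and HCN channel genes 1 had a positive term, Kcnip1, a cytoplasmic partner of Kv4 channels. A negative one was had by 2, Kcnd1, a Kv4 subunit, and Kcnj4, an inward rectifier. The group means were at most 8.81 TPM for Kcnip1 and 12.5 TPM for Kcnd1, and the exact permutation p was 0.0506 and 0.0996. With a pseudocount of 5 and of 0.1 the term of Kcnip1 was 0.92 and 3.57, and that of Kcnd1 -1.42 and -3.36. Kcnj4 was at 14.6, 22.9, 19.6 and 26.6 TPM in BLA CTA, against 49.1, 34.6, 32.9 and 30.6 TPM in BLA taste control, and averaged 44.1 and 43.3 TPM in GC CTA and taste control, with a term of -0.83 (SE 0.37). Of 28 glutamate receptor genes and partners, Grm3, a metabotropic receptor, and Grik3, a kainate receptor subunit, had terms of -1.26 and -0.78, and no gene a positive one at that limit. None of 12 GABA-A receptor subunits and none of 26 sodium and calcium channel genes had an unadjusted p under 0.05.

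The unadjusted limit was passed by 3.96% of all genes, the share beside which each count here stands. In 26 genes of mitochondrial protein import, the 2 at the unadjusted limit are both subunits of the TIM23 translocase of the inner membrane and had opposite signs. Timm50 was at 187, 68.9, 48.8 and 169.6 TPM in BLA CTA, against 35.2, 23.3, 20.6 and 40.0 TPM in BLA taste control, with a term of 1.62, and Timm17b had a term of -1.63. The exact permutation p was 0.0698 for Timm50 and 0.00857 for Timm17b. Of 75 oxidative phosphorylation genes 1 passed, Ndufb5 of complex I, with a term of 0.47 and no overlap in GC. Of 16 glucocorticoid-responsive genes 3 passed, Cdkn1a, Mt1, which encodes a metallothionein and had a term of -1.18, and Map3k6, whose group means were at most 5.17 TPM. Cdkn1a is also a member of the delayed activity-regulated genes, so it is counted in both lists. Ddit3 and Hsf1 passed among 27 heat shock and unfolded protein genes, with Ddit3, a transcription factor of endoplasmic reticulum stress, at a term of 1.55. The exact permutation p was 0.0841 for Ddit3 and 0.0098 for Hsf1.

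Of 17 circadian clock genes Npas2, a partner of the clock protein BMAL1, passed with a term of -1.15, where 3.96% of all genes passed. The difference of Npas2 lay in GC. It was at 52.5, 48.3, 71.3 and 53.1 TPM in GC CTA, against 28.3, 25.4, 28.6 and 38.9 TPM in GC taste control, and overlapped in BLA. Arntl, which encodes BMAL1, also had no overlap in GC and a term of -0.77, with an interval of -1.64 to 0.11. Of 13 lithium targets and genes of inositol metabolism, Slc5a3, the sodium and myo-inositol cotransporter, passed with a term of 0.84, at 43.1, 23.1, 25.5 and 28.3 TPM in BLA CTA against 17.5, 17.4, 24.4 and 18.5 TPM in BLA taste control. Lithium is known to lower inositol by inhibiting inositol monophosphatase. None of 26 cholesterol synthesis genes and none of 35 proteasome genes passed.

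**Figure D5:**
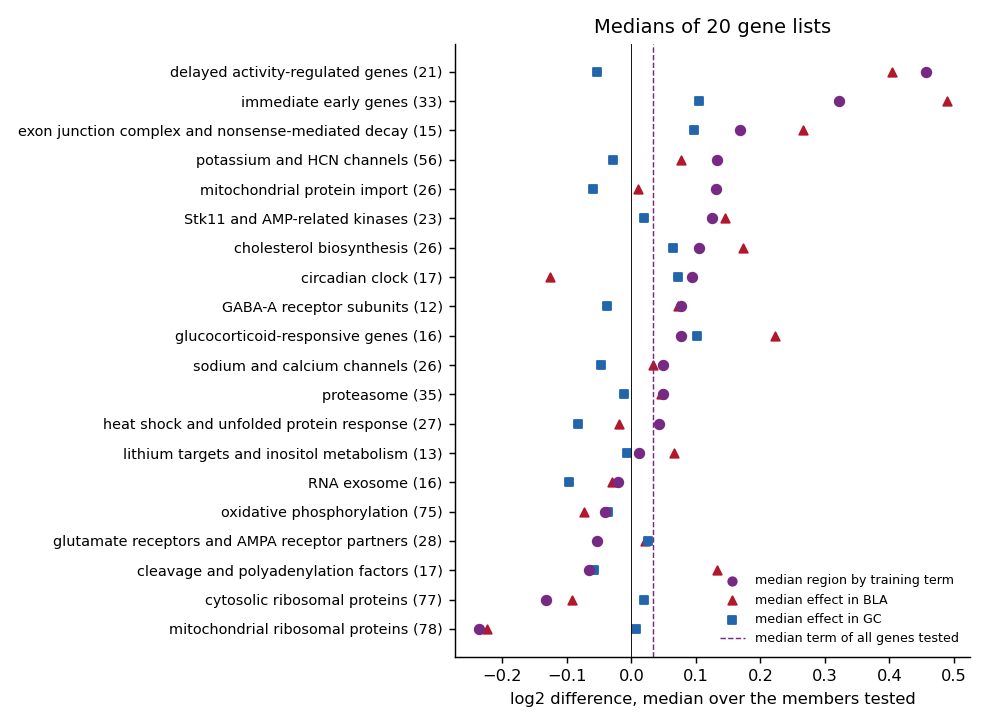
Median over the members tested (number in brackets) of the region by training term (purple) and of the effects of training in BLA (red triangles) and GC (blue squares) for 20 gene lists, on the log2(TPM + 1) scale of the x axis. The delayed activity-regulated genes lie highest at 0.46, the mitochondrial ribosomal proteins lowest at -0.24, and the dashed line marks the median of all genes, 0.03.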

How the data were processed

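The deposited tables give TPM per library for YFP+ neurons of BLA and GC. Per the labels and the paper's methods, the authors sorted the neurons manually, amplified their RNA, aligned single-ended reads to mm10 with TopHat (version not given in the sources used here) and turned unique reads into TPM. Columns of the authors' group means, fold changes and p-values were not used. Each library sums to a fixed TPM total, so the depth behind a value is not known and its precision comes only from the spread between the 4 libraries of a group. The labels give 4 mice a group but not how mice map to libraries, and the paper gives 3 or 4 a group for its GC neuron types, so the 4 GC libraries of a group may not stand for 4 mice. The p-values measure the spread between libraries.

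Entries were matched between the tables by name and identifier. Genes averaging under 1 TPM over the 16 libraries were left out, the rest entered as log2(TPM + 1), and the region by training term was fitted in limma 3.58.1 (R 4.3.3) on 4 group means with a trend of variance on the mean. Adjustment followed Benjamini and Hochberg over all 15191 genes. For named genes an exact permutation test (two-sided) was added, in which CTA and taste control were exchanged within each region, over 4900 arrangements, under the null that training changed neither region. No p-values are given within a region, because the spread differed between BLA and GC. The fits were checked on simulated data.

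Named genes were 23 that the study names, the 10 positive and 10 negative terms of smallest p among genes of at least 30 TPM, genes without overlap in both regions, and up to 4 members of each list. A gene of this rule is not reported here. Members, rule and lists were chosen with earlier results of these data known. Positions and sequences come from RefSeq (GRCm38.p6, the build called mm10), where 108 of 109 genes of the rule were found. Of the 66 genes named with results, 23 overlap another RefSeq gene, and strand was not stated. Alternatives were a pseudocount of 0.1 or 5, other filters on low values, median-ratio and quantile scaling, no trend, array quality weights, separate fits by region, replicate blocks, and leaving out each library in turn.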

Additional observations from a re-analysis of the deposited data

Results flagged for a closer look

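Tpp1 is listed for a closer look because every BLA CTA library was below every BLA taste control library while every GC CTA library was above every GC taste control library. Its term was -1.12 (unadjusted limma p 0.00227, adjusted p 0.999515), and it lay between -1.22 and -0.93 when single libraries were left out.

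In 15 of 264 gene and group pairs examined (5.68%) 1 library stood apart from the other 3 of its group, where chance gives about 1 in 20. Among genes with a positive term, these were Ric8 at 18.05 TPM in BLA taste control 4, with the nearest library at 36.1 TPM, and Nudt21 at 47.59 TPM in BLA taste control 2, with the nearest at 25.5 TPM. Rgs2 was at 106.06 TPM in BLA taste control 4, Ndufb5 at 462.54 TPM and Slc5a3 at 24.39 TPM in BLA taste control 3. Cyr61, an immediate early gene that encodes a matricellular protein, was at 13.11 TPM in GC CTA 3 and at 5.47 TPM in BLA taste control 1, with the nearest library of its group at 1.87 TPM in GC CTA and 0.30 TPM in BLA taste control. Among genes with a negative term, Fbl was at 86.16 TPM in GC taste control 2, 4732416N19Rik at 66.74 TPM in GC taste control 1, Ctsd at 238.44 TPM in BLA taste control 2 and Klf2 at 0.91 TPM in BLA CTA 3. Kcnd1 was at 3.18 TPM in BLA CTA 2, with the nearest library at 0.54 TPM. Rpl27a was at 275.28 TPM in BLA CTA 1, below the next library of its group at 414 TPM. Mrpl55, a mitochondrial ribosomal protein gene, was at 120.12 TPM in GC CTA 2 and at 157.28 TPM in BLA taste control 2. What set these libraries apart was not tested.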

How the results depend on the processing

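No gene passed an adjusted p of 0.05 under any alternative run, the smallest adjusted p being 0.083 without BLA taste control replicate 2. At an unadjusted p under 0.05 the 601 genes became 177 when only genes of at least 30 TPM were tested, which leaves 5495, and lay between 481 and 837 with single libraries left out. The 28 genes past 2-fold at an unadjusted p under 0.01 lay between 24, without GC CTA replicate 4, and 51, without BLA CTA replicate 2, of which 21 were among the 28, and numbered 44 without BLA CTA replicate 3. With all libraries they lay between 21, with no trend, and 32, with median-ratio rescaling. All 66 named genes kept the sign of their term under every alternative in which they were tested. They were chosen largely for a small p of this term or by the study on the same libraries, so a kept sign adds little.

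The labels tie the replicate numbers to no shared mouse or batch, so the numbers were not taken as pairing. Of 8 pairs of BLA and GC libraries with the same number 1 had a correlation of deviations over 0.1 (range -0.37 to 0.20). Of CTA and taste control pairs, 0 of 4 did in BLA (-0.16 to 0.08) and 3 of 4 in GC (0.06 to 0.39), and 2 of 8 BLA libraries and 4 of 8 GC libraries correlated best with the library of their own number. With the replicate block over all groups 594 genes passed the unadjusted limit and 27 the 2-fold criteria, with the replicate block by training and number 542 and 23, and 0 passed adjustment with either replicate block. The unadjusted p of Fos was 0.0578 with the replicate block by training and number. The median term of the Stk11 and AMP-related kinases had no stable sign, lying between -0.04, without BLA taste control replicate 1, and 0.31, without BLA CTA replicate 3.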

Other observations

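After the group means were taken out, the first axis of the 16 libraries carried 23.2% of the remaining variance. BLA CTA 2, BLA taste control 1 and 2, GC CTA 3 and 4 and GC taste control 3 lay furthest to one side. With the group means taken out, the axis could not follow training or region, so it says nothing of either. BLA CTA 2 and GC CTA 3, both on that side, were also the libraries of their groups with the highest median level of immediate early genes. A part of this axis in the terms was not tested.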
